A study of Homo sapiens with 3 samples.

Results

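The MYC and MAX network was described in drug-treated breast cancer spheroids through 10 of its genes: MYC, MYCN, MAX, MXD1, MXD3, MXD4, MXI1, MNT, MLX and MGA. They were chosen by symbol, and each matched 1 row of the count tables, which hold 22499 genes with a symbol. The spheroids were made from CAMA-1, an established estrogen receptor-positive breast cancer cell line. The sensitive cells were Venus-labelled CAMA-1, and the resistant cells were mCherry-labelled CAMA-1_ribociclib_resistant, a derived line selected by long growth with ribociclib, an inhibitor of the cell cycle kinases CDK4 and CDK6. Each well was plated with 2000 cells that were 100% sensitive, 50% of each line, or 100% resistant, and all 3 compositions carried the treatment label DMSO + 1 uM ribociclib for 11 days, so that no level without drug was measured. Single-cell RNA was counted as unique molecular identifiers (UMIs), which mark each captured RNA molecule once near its 3' end. There was 1 library per composition, so no comparison between populations was tested and no p-value is given. Every interval below is a 95% interval for counting error only.

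The annotation deposited by the authors divides the cells into 4 populations. It holds 3329 cells of the sensitive monoculture, 2059 sensitive cells of the coculture, 6292 resistant cells of the coculture and 7557 cells of the resistant monoculture. The 2 cocultured populations share 1 library. Their summed depth was 96247731, 70896822, 199632131 and 270891547 UMIs in that order, and the median cell had 27622 to 35443 UMIs. Levels are in CPM, the UMIs of a gene per 1000000 UMIs of its population. By the deposited cell cycle phase, 89.0% of sensitive monoculture cells were in G1, against 55.3% of cocultured sensitive cells, 49.7% of cocultured resistant cells and 50.0% of resistant monoculture cells. Since the populations differ in phase, values within G1 are given for the members each comparison turns on.

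MYC and MYCN are transcription factors that bind DNA as pairs with MAX, mostly at the E-box CACGTG, and raise transcription of genes for growth, ribosome production and metabolism. MXD1, MXD3, MXD4 and MXI1 also pair with MAX, occupy the same E-boxes and recruit SIN3 and histone deacetylase complexes, which lower transcription. MNT is a further repressor, MLX is a MAX-like partner that also serves the glucose-sensing factors MLXIP and MLXIPL, and MGA joins MAX to a Polycomb-type complex. MXD genes are known for their expression in cells that leave the cell cycle, with MXD3 known as the exception that is expressed in S phase.

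The regions at the starts of MXD4 and MXD3 are shown because these repressors had opposite courses over whole cell cycle phases in the values below. A region runs from 250 bases before to 50 bases after a gene's start (RefSeq, GRCh38.p14), and CACGTG is in capitals. The MXD4 region, chr4:2262060-2262359 on the minus strand, holds CACGTG 238 bases before the start. The MXD3 region, chr5:177312703-177313002 on the minus strand, holds none.
MXD4: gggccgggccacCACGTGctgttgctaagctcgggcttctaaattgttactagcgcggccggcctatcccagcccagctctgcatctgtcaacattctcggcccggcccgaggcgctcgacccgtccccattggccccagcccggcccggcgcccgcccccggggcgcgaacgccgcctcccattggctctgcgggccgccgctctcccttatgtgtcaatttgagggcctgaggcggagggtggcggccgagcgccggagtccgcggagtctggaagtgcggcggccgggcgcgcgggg
MXD3: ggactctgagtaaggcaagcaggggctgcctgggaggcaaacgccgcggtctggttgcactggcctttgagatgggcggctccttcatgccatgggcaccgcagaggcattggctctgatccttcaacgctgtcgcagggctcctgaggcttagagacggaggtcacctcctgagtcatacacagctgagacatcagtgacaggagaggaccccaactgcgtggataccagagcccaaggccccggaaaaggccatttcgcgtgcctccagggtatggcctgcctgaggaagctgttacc

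Among the other members, MNT and MLX had a CACGTG in this region. It lay 193 bases before the start of MNT and 50 bases before that of MLX. The stretches around both are from chr17:2401228-2401273 on the minus strand and chr17:42567030-42567075 on the plus strand.
MNT: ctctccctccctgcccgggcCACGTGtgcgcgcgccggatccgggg
MLX: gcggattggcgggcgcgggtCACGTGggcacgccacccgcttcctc

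CACGTG reads the same on both strands and was found in 2548 of 35116 such regions, or 7.26%. MYC itself was not searched. No CACGTG was found in the regions listed for MYCN, MAX, MXD1, MXI1 and MGA, of which MAX has 2 and MXI1 and MGA have 3 each. The cell cycle motifs TTTNGCGC, an E2F site, and TTTGAA, a site of late cell cycle genes, were searched on both strands and were in 1.79% and 15.2% of all regions. Neither was found for MXD3 or MXD4, which says only that these letters are not in these windows. MYCN held both motifs in its region, and MGA held TTTNGCGC in 2 regions and TTTGAA in 1 of these. A match is a run of letters and not a measured binding site.

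The identity of the populations was read from their transgenes. No cell of a population held a UMI of the other line's transgene, but the authors assigned cells of the coculture by these UMIs. A UMI of their own transgene was found in all cocultured cells, in 67.8% of sensitive monoculture cells and in 72.9% of resistant monoculture cells, although the stated filter asks for 2 or more UMIs. All 8 luminal markers, among them ESR1, GATA3 and KRT8, were present in every population, with summed levels of 7677 to 9619 CPM. The summed levels were 0.426 to 1.69 CPM for 4 immune markers, 2.41 to 3.61 CPM for 4 fibroblast markers, 0.0701 to 0.301 CPM for 2 endothelial markers and 0.233 to 3.65 CPM for 3 basal markers, with 3 to 4 immune, 3 fibroblast, 2 endothelial and 2 to 3 basal markers under 1 CPM. FABP7, a fatty acid binding protein high in the sensitive line, read 1398 CPM in sensitive monoculture, 289.0 CPM in sensitive coculture, 14.4 CPM in resistant coculture and 0.808 CPM in resistant monoculture, so the cocultured resistant cells held FABP7 UMIs that the resistant monoculture nearly lacked. Their part in the network values was not tested. Pairs of libraries shared 34 to 60 cell barcodes, of which 7 to 17 were annotated in both.

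MYC was the most abundant activator and differed in an ordered way between the populations. Sensitive cells read 81.9 CPM (80.1 to 83.7) alone and 69.5 CPM (67.6 to 71.5) in coculture. Resistant cells read 59.4 CPM (58.4 to 60.5) in coculture and 54.0 CPM (53.2 to 54.9) alone, and no neighbouring intervals overlapped. The gene lies at 128747680 to 128755197 on chromosome 8 (GRCh37, plus strand). MYCN, the paralog best known from the nervous system, was near the floor, with 11, 7, 5 and 7 UMIs in the same order, or 0.114, 0.0987, 0.0250 and 0.0258 CPM. MYCN (chromosome 2, 16080672 to 16087129) is therefore given by its counts, and MYC made up 99.9% to 100% of the activator UMIs. MAX (chromosome 14, 65472892 to 65569413, minus strand), the partner that MYC and the MXD proteins compete for, read 24.6, 28.7, 25.6 and 20.1 CPM. It was highest in cocultured sensitive cells and lowest in the resistant monoculture, and the intervals of sensitive monoculture (23.6 to 25.6) and resistant coculture (24.9 to 26.3) overlapped.

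**Figure D1:**
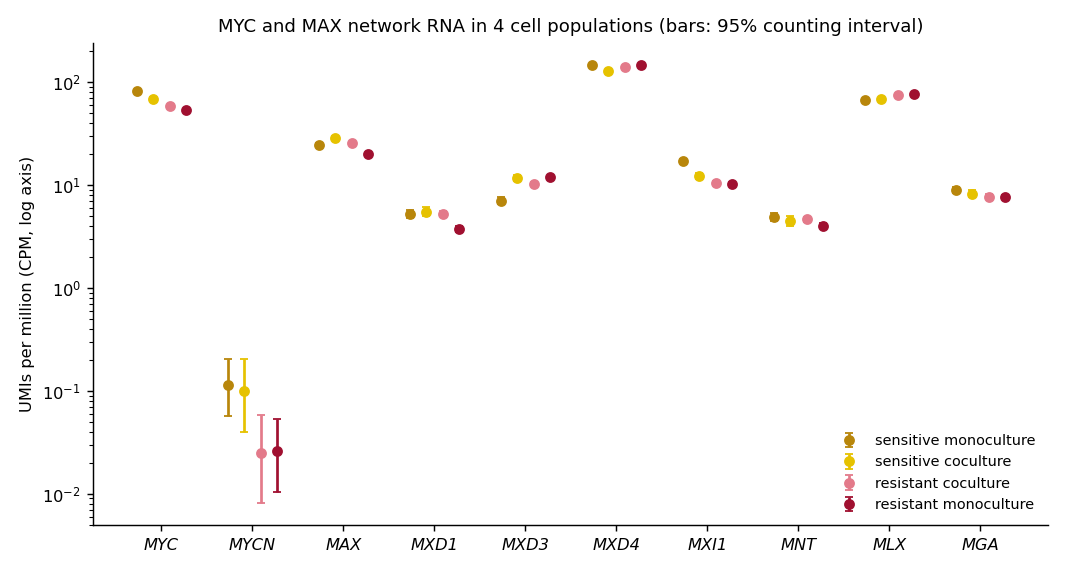
Level of each of the 10 genes (x axis) in CPM (log y axis) in 4 populations, with bars for the 95% counting interval. MXD4 had the highest level in every population at 129.2 to 146.7 CPM, MYC declined from 81.9 to 54.0 CPM from left to right, and MYCN stayed at or under 0.114 CPM.

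MXD4 (chromosome 4, 2249159 to 2263836, minus strand) was the dominant MXD-type repressor and had the highest UMI level of the 10 genes. It read 146.2 CPM (143.8 to 148.6) in sensitive monoculture, 129.2 CPM (126.5 to 131.8) in sensitive coculture, 142.0 CPM (140.3 to 143.6) in resistant coculture and 146.7 CPM (145.3 to 148.2) in resistant monoculture. The cocultured sensitive cells were the lowest, and the 2 monocultures overlapped. MXD4 supplied 81.5% to 85.0% of the MXD-type UMIs, so that a sum over these repressors is mainly MXD4.

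The other repressors were less abundant and did not follow MXD4. MXI1 (chromosome 10, 111967363 to 112047123) was highest in sensitive monoculture at 17.2 CPM (16.4 to 18.1), followed by 12.2 CPM in sensitive coculture, 10.6 CPM in resistant coculture and 10.3 CPM in resistant monoculture, of which the last 2 overlapped. MXD3 (chromosome 5, 176728462 to 176739758, minus strand) had the reverse pattern between the monocultures, with 7.04 CPM (6.52 to 7.59) in sensitive and 11.9 CPM (11.5 to 12.3) in resistant monoculture, and 11.7 and 10.4 CPM in sensitive and resistant coculture. MXD1 (chromosome 2, 70124820 to 70170077), a repressor known from differentiating cells, read 5.21, 5.50, 5.30 and 3.75 CPM in the order above. Only the resistant monoculture, at 3.52 to 3.99 CPM, lay apart from the other populations for MXD1.

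MNT, MLX and MGA varied least among the 9 members other than MYCN, with an SD of log2(CPM + 1) of 0.11, 0.14 and 0.10 over the 12 combinations of population and phase, against 0.94 for MXD3. MNT (chromosome 17, 2287367 to 2304398, minus strand) read 4.89, 4.46, 4.65 and 4.05 CPM, and MGA (chromosome 15, 41913332 to 42065279) read 8.91, 8.27, 7.72 and 7.70 CPM. MLX (chromosome 17, 40719090 to 40725257) read 67.0 CPM and 68.7 CPM in the sensitive populations and 74.6 CPM and 77.7 CPM in the resistant ones, and so was higher in both resistant populations than in both sensitive ones. Counts of 3' ends were not divided by transcript length, so levels of different genes are compared as captured molecules. Positions are GRCh37 coordinates of GENCODE 44, which is newer than the gene models of the count tables.

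The ratio of activator to repressor RNA does not depend on how the populations are scaled. Per UMI of MXD1, MXD3, MXD4 and MXI1, sensitive cells held 0.467 UMIs of MYC and MYCN when grown alone (0.455 to 0.480) and 0.439 when cocultured (0.425 to 0.454). Resistant cells held 0.353 when cocultured (0.346 to 0.361) and 0.313 when grown alone (0.307 to 0.319). The intervals of neighbouring populations did not overlap. Summed repressor levels were 175.6, 158.5, 168.2 and 172.7 CPM in the same order, which is within a narrower range than the activator levels of 82.0, 69.6, 59.4 and 54.0 CPM. In G1 cells alone the order was the same, with 0.450, 0.418, 0.333 and 0.295. The G1 intervals of the 2 sensitive populations overlapped, at 0.437 to 0.463 alone and 0.399 to 0.438 in coculture. They also overlapped in S cells, at 0.368 to 0.457 and 0.372 to 0.429. In G2M cells those of the 2 resistant populations overlapped. Per UMI of MXD4 there were 0.560, 0.538, 0.419 and 0.368 UMIs of MYC, with overlapping intervals in the 2 sensitive populations (0.545 to 0.576 and 0.520 to 0.557). Per UMI of MXD3 the order was the same, with 11.6, 5.95, 5.72 and 4.54. It was not kept per UMI of MXI1, with 4.76, 5.72, 5.60 and 5.24, or of MXD1, with 15.7, 12.6, 11.2 and 14.4.

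**Figure D2:**
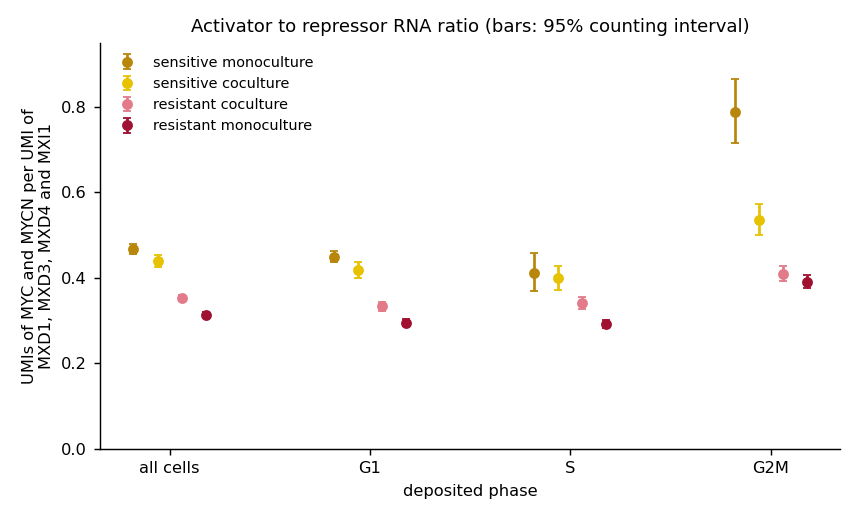
UMIs of MYC and MYCN per UMI of MXD1, MXD3, MXD4 and MXI1 (y axis) over all cells and in each deposited phase (x axis), with bars for the 95% counting interval. The ratio was higher in both sensitive populations than in both resistant ones in all 3 phases, and was highest, at 0.787, in G2M cells of the sensitive monoculture.

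Sensitive cells grown with resistant cells were compared with sensitive cells grown alone, which asks how the company of resistant cells goes with the network under drug. A gene was counted where its log2 ratio of CPM + 1 was at least 0.5 or at most -0.5 (1.41-fold) with at least 50 UMIs over both populations. MXD3 was the only member counted as higher and none was counted as lower, among the 9 members with enough UMIs. Over all 12327 genes with enough UMIs, 6.81% were counted as higher and 8.55% as lower. MXD3 was 1.66-fold higher (1.5 to 1.84) in coculture. MXI1 was at 0.707 of its monoculture level (0.650 to 0.768) and MYC at 0.849 (0.819 to 0.880), both short of the limit. MAX was 1.17-fold higher (1.10 to 1.24) and 1.16-fold (1.08 to 1.25) in G1, MXD4 was at 0.884 (0.861 to 0.907) and at 0.931 (0.901 to 0.962) in G1, and the intervals of MXD1, MNT, MLX and MGA included 1. The median log2 ratio of the 9 members was -0.10, against -0.05 for all genes.

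Within a phase, MXD3 did not differ in this way. It read 4.74 CPM in G1 cells of the monoculture and 4.86 CPM in those of the coculture, a ratio of 1.02 (0.854 to 1.23), and 15.0 and 16.5 CPM in S cells, a ratio of 1.10 (0.871 to 1.40). In G2M cells it was lower in coculture, at 21.7 CPM (19.6 to 24.0) against 27.1 CPM (23.3 to 31.2), and these intervals overlapped slightly. Within cluster 7, G2M cells read 25.8 CPM (23.1 to 28.8) in coculture and 31.8 CPM (27.3 to 36.9) alone, also with overlap. With each phase given equal weight, the log2 ratio of MXD3 was -0.11 in place of 0.66. MYC kept its direction within G1, at 80.0 CPM alone and 67.8 CPM in coculture, a ratio of 0.847 (0.809 to 0.888), and MXI1 did so at 17.7 and 12.6 CPM, a ratio of 0.714 (0.642 to 0.793). G1 cells of the 2 cultures lay in different clusters, with 1857 of 2963 monoculture cells in cluster 4 and 679 in cluster 8, and 868 of 1138 coculture cells in cluster 3. Within a cluster, G1 cells read 104.3 CPM of MYC alone and 68.8 CPM in coculture in cluster 3, 92.7 and 55.7 CPM in cluster 8, and 74.3 and 59.0 CPM in cluster 4. In clusters 9 and 12 they read 93.3 and 69.0 CPM, and 66.4 and 61.2 CPM, with intervals that overlapped. For MXI1, clusters were compared over all phases, where both cultures had at least 50 cells. It read 13.9 CPM alone and 12.2 CPM in coculture in cluster 3, and 16.5 and 13.7 CPM in cluster 4. In cluster 7 it read 14.1 and 11.3 CPM. The MXI1 intervals of the 2 cultures overlapped in each of these clusters. In S cells the interval for MYC included 1 (0.818 to 1.02), and in G2M cells MYC read 114.2 CPM alone and 77.8 CPM in coculture, a ratio of 0.681 (0.623 to 0.744).

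Resistant cells grown with sensitive cells were compared with resistant cells grown alone. No member was counted in either direction, where 1.59% of 13156 genes were counted as higher and 0.0988% as lower. MXD1 came nearest to the limit, at 5.30 CPM in coculture and 3.75 CPM alone, or 1.41-fold (1.30 to 1.54), with a log2 ratio of CPM + 1 of 0.41. MAX was 1.27-fold higher in coculture (1.23 to 1.32) and MYC 1.10-fold (1.07 to 1.13). Of all genes tested, 3.46% had a ratio as high as that of MXD1 and 6.67% one as high as that of MAX. MXD3 was at 0.873 (0.825 to 0.922). In G1 cells MAX was 1.32-fold (1.25 to 1.40), MXD1 1.36-fold (1.20 to 1.54) and MYC 1.12-fold (1.08 to 1.16) the level alone, and the interval of MXD3 included 1 (0.828 to 1.08). MAX was thus higher in coculture than alone in both lines, while MYC was lower in coculture in the sensitive line and higher in the resistant line. For MYC, 27.5% of all genes tested had a ratio as low in the sensitive line, and 27.6% one as high in the resistant line. The difference between these ratios was not tested, because each population comes from 1 library, and the cocultured cells of both lines come from the same one.

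The resistant monoculture was compared with the sensitive monoculture, which asks how the lines differ when grown apart. Of 9 members, MXD3 was counted as higher, and MXI1 and MYC as lower. Over 12970 genes, 8.59% were counted as higher and 15.9% as lower. MYC was at 0.660 of its level in sensitive cells (0.642 to 0.678) and MXI1 at 0.599 (0.564 to 0.637), while MXD3 was 1.69-fold higher (1.55 to 1.84). Over all cells MXD4 had a ratio of 1.00 (0.985 to 1.02), but within G1 and G2M it was higher in resistant cells, at 163.3 against 150.5 CPM in G1 and 117.5 against 100.6 CPM in G2M, while the interval in S cells included 1. MYC passed the limit with a log2 ratio of -0.59, but read -0.48 when populations were scaled by TMM factors. In G1 cells MYC read 53.4 CPM in resistant and 80.0 CPM in sensitive cells, and MXI1 9.50 and 17.7 CPM, a ratio of 0.538 (0.498 to 0.581). MXD3 in G1 was 4.29 and 4.74 CPM, a ratio of 0.905 (0.794 to 1.03), so that its higher level in the resistant monoculture was not seen within G1.

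Within the coculture library, resistant cells were compared with sensitive cells of the same spheroids. No member was counted, against 3.17% of 12774 genes as higher and 5.41% as lower. MYC was at 0.855 in resistant cells (0.827 to 0.884) and MXI1 at 0.873 (0.806 to 0.946), the same directions as between the monocultures with smaller sizes. MXD4 was 1.10-fold higher (1.07 to 1.13) and MLX 1.09-fold (1.05 to 1.12). MXD3, higher in resistant than in sensitive monoculture, was at 0.889 (0.819 to 0.964) here and at 0.836 in G1, where the interval included 1. In G1 cells MYC was at 0.881 (0.840 to 0.924), MXI1 at 0.832 (0.744 to 0.931) and MXD4 at 1.14 (1.10 to 1.17), and the interval of MXD1 included 1 in G1 and over all cells, with log2 ratios of 0.15 and -0.05. These 4 comparisons share populations with each other and are not independent.

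**Figure D3:**
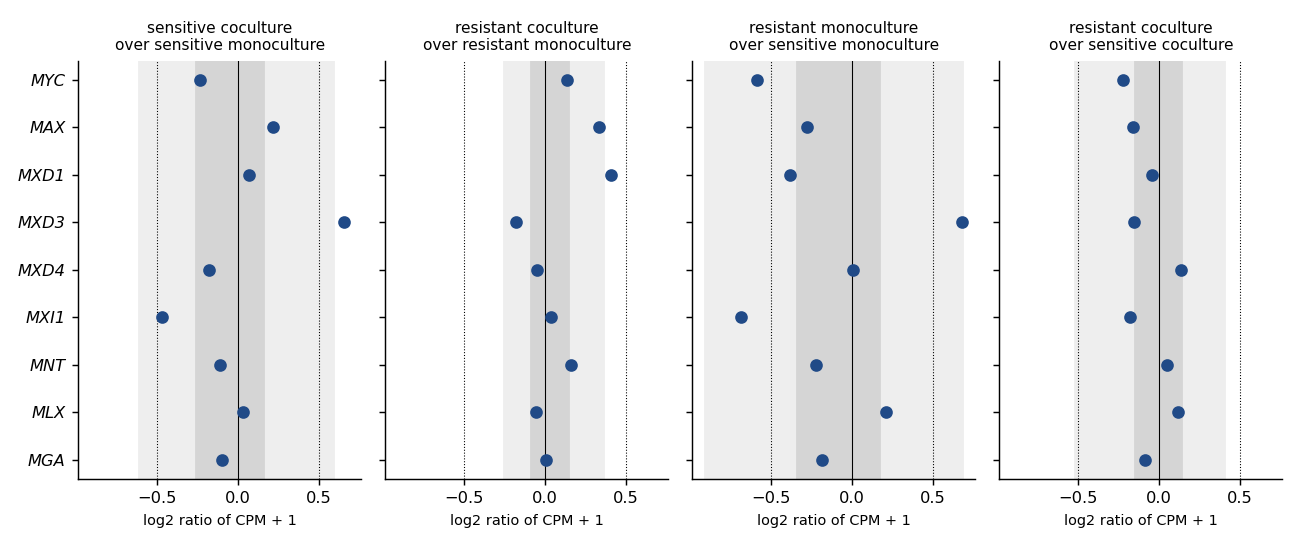
Log2 ratio of CPM + 1 (x axis) of the 9 members with enough UMIs (y axis) in 4 comparisons, over bands that hold the middle 90% (light) and 50% (dark) of all genes tested, with dotted lines at the limits of -0.5 and 0.5. MXD3 lay beyond the light band at 0.66 in sensitive coculture over sensitive monoculture, and MXD1 at 0.41 in resistant coculture over resistant monoculture. No member passed a dotted line in resistant coculture over resistant monoculture or over sensitive coculture.

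Over whole phases, MXD3 and MXD4 had opposite courses in each of the 4 populations. The phases were those of the deposited annotation, and the genes that scored them are not given in the sources used here. RRM2, a ribonucleotide reductase subunit made for DNA synthesis, read 1.90 to 6.13 CPM in G1 cells and 60.1 to 125.9 CPM in S cells of the 4 populations. RRM2 may itself be among the scoring genes, so these values are no independent check of the phases. MXD3 in sensitive monoculture read 4.74 CPM in G1 cells, 15.0 CPM in S cells and 27.1 CPM in G2M cells. In sensitive coculture it read 4.86, 16.5 and 21.7 CPM, in resistant coculture 4.06, 12.5 and 19.5 CPM, and in resistant monoculture 4.29, 15.5 and 23.3 CPM. The phase labels were uneven across the authors' clusters. In resistant monoculture, S cells of clusters 0, 5 and 6 numbered 460, 69 and 182 of 2162 and read 10.8, 13.7 and 16.1 CPM of RRM2, against 79.5 CPM in the 1239 S cells of cluster 1. G2M cells of clusters 0, 5 and 6 numbered 165, 236 and 91 of 1614. MXD3 read 5.96, 6.10 and 4.58 CPM in these, close to the 4.29 CPM of G1 cells, against 29.8 CPM in the 977 G2M cells of cluster 2. In sensitive coculture MXD3 likewise read 4.00 CPM in the 85 G2M cells of cluster 3, where G1 cells read 4.85 CPM, and 25.8 CPM in the 331 G2M cells of cluster 7. The higher mean of MXD3 in S and G2M cells thus came from clusters such as 1, 2 and 7, in which RRM2 was also high. Over whole phases, the level of MXD3 in G2M cells was 5.71-fold (4.78 to 6.82), 4.47-fold (3.73 to 5.38), 4.81-fold (4.27 to 5.43) and 5.43-fold (4.91 to 6.0) that in G1 cells, in the same order.

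MXD4 declined from G1 to G2M over whole phases. It read 150.5, 139.1 and 100.6 CPM in G1, S and G2M cells of the sensitive monoculture and 140.2, 127.6 and 106.7 CPM in those of the sensitive coculture. In resistant coculture it read 159.3, 136.3 and 116.8 CPM, and in resistant monoculture 163.3, 142.0 and 117.5 CPM. G2M cells held 0.669 (0.618 to 0.722) of the G1 level in sensitive cells grown alone and 0.761, 0.733 and 0.720 in the other populations in the same order. The share of MXD4 among MXD-type UMIs was 84.4% in G1 and 69.2% in G2M cells of the sensitive monoculture and 90.1% and 75.7% in those of the resistant monoculture. The 2 courses were not paired within every cluster. In resistant monoculture cells of cluster 1, MXD4 read 135.0, 138.3 and 141.7 CPM in G1, S and G2M, while MXD3 read 6.37, 20.7 and 36.8 CPM. In clusters 5 and 6 MXD4 read 139.8 and 164.6 CPM in G1 and 98.4 and 100.7 CPM in G2M. MXD3 read 4.79 and 3.38 CPM in G1 there, and 6.10 and 4.58 CPM in G2M.

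S and G2M cells together were then set against G1 cells within each population. MXD3 was the only member counted as higher in each of the 4, and no member was counted as lower. In sensitive monoculture 9.70% of 11748 genes were counted as higher and 8.27% as lower, in sensitive coculture 7.19% and 2.80% of 11505 genes, in resistant coculture 6.18% and 1.64% of 12422 genes, and in resistant monoculture 6.45% and 1.35% of 12589 genes. MXD3 was 4.46-fold (3.82 to 5.21), 3.93-fold (3.32 to 4.66), 3.91-fold (3.5 to 4.39) and 4.38-fold (3.99 to 4.81) higher in this order, and at most 1.29% of all genes had a ratio as high in any population. MXD4 was at 0.793, 0.836, 0.796 and 0.806 of its G1 level. MXI1 was at 0.817 (0.700 to 0.949) in sensitive monoculture and 1.16-fold higher (1.08 to 1.26) in resistant monoculture. S and G2M cells were also deeper, with medians of 33446 to 39100.5 UMIs in S cells against 26713 to 33368 in G1 cells, and CPM divides this out only for summed levels.

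**Figure D4:**
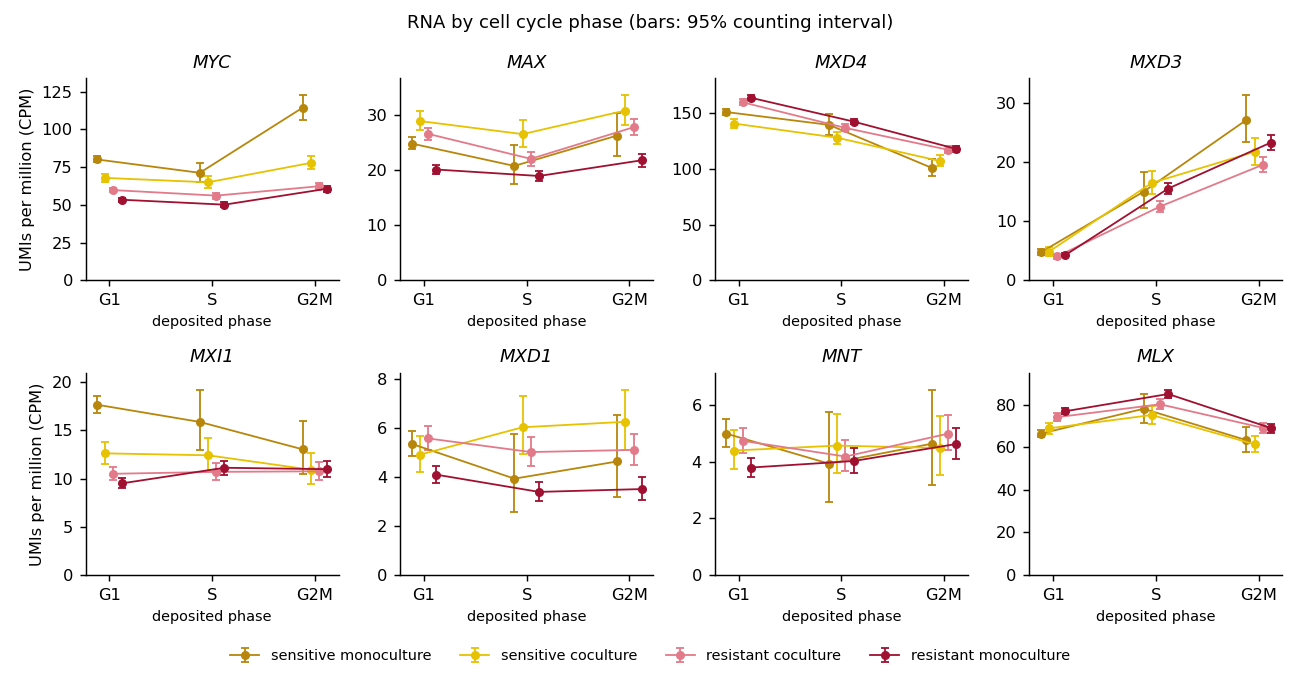
Level of 8 genes in CPM (y axis) by deposited phase (x axis) in 4 populations, with bars for the 95% counting interval. Mean MXD3 was higher in S than in G1 cells and higher again in G2M cells in every population, MXD4 declined, and MYC stood at 114.2 CPM in G2M cells of the sensitive monoculture.

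MYC differed less with phase than MXD3 did, and most in the sensitive monoculture. It was lower in S than in G1 cells in sensitive monoculture, at 0.890 (0.809 to 0.977), and in both resistant populations, at 0.939 in each. In G2M cells it was 1.43-fold (1.32 to 1.54) the G1 level in sensitive monoculture, 1.15-fold (1.07 to 1.23) in sensitive coculture, 1.04-fold (0.998 to 1.09) in resistant coculture and 1.14-fold (1.09 to 1.18) in resistant monoculture. The 190 G2M cells of the sensitive monoculture held 789 MYC UMIs, of which 48 were in 1 cell and 23.2% in the 10 cells with the most, against 17.9% in the top 149 of 2963 G1 cells. The median was 3 MYC UMIs in these G2M cells and 2 in G1 cells. Within the authors' cluster 7, which held 148 of these cells, sensitive G2M cells read 110.4 CPM (101.8 to 119.6) when grown alone and 81.6 CPM (76.7 to 86.8) when cocultured, while S cells of the cluster read 63.1 and 61.2 CPM with overlapping intervals. The activator to repressor ratio in G2M cells was 0.787 (0.716 to 0.865) in sensitive cells grown alone and 0.536, 0.410 and 0.391 in the other populations.

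MLX and MAX had smaller courses of their own. MLX was higher in S than in G1 cells in each population, from 66.5 to 78.2 CPM in sensitive cells alone, 68.9 to 75.2 CPM in those cocultured, 74.2 to 80.3 CPM in cocultured resistant cells and 77.0 to 85.1 CPM in resistant cells alone. In G2M cells MLX read 63.4, 61.5, 69.2 and 69.1 CPM, below G1 in each population, although the interval of the ratio included 1 in sensitive cells alone (0.864 to 1.05). MAX was lowest in S cells in each population, at 20.7, 26.5, 22.0 and 18.9 CPM, and the ratio to G1 had an interval that included 1 in cocultured sensitive cells (0.820 to 1.03) and in resistant cells alone (0.884 to 1.003). MGA was higher in S than in G1 cells in resistant cells alone, at 8.38 against 6.97 CPM, a ratio of 1.20 (1.09 to 1.33), and its interval included 1 in the other populations. For MNT the S to G1 interval included 1 in all 4.

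The deposited clusters split the populations further. Among clusters of at least 50 cells of a population, MYC ranged from 45.9 CPM in resistant monoculture cells of cluster 10 to 109.6 CPM in sensitive monoculture cells of cluster 3. MXI1 was highest in sensitive monoculture cells of cluster 8, at 23.1 CPM (20.7 to 25.6), of which 99.7% were in G1, and read 16.5 CPM (15.4 to 17.5) in cluster 4, which was 95.5% G1. MYC read 92.8 CPM in cluster 8 and 74.4 CPM in cluster 4. MXD3 was 29.0 CPM in sensitive monoculture cells of cluster 7 and at most 6.68 CPM in the other sensitive monoculture clusters of this size. The activator to repressor ratio was not uniform within a line. It was 0.451 and 0.477 in cluster 5 of the resistant monoculture and coculture and 0.453 in cluster 13 of the resistant coculture. These values lay above the 0.412 of cluster 4, which held 1945 of 3329 sensitive monoculture cells, and the 0.365 of cluster 12 of that monoculture. The value of cluster 13 rests on 55 cells with 149 MYC UMIs, and no intervals are given for these cluster ratios. Clusters were built by the authors on the same cells, so these are descriptions.

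The share of cells with a UMI was taken after each cell had been thinned to 5000 UMIs, which left out no cell. MYC was found in 31.6% (30.1 to 33.2) of sensitive monoculture cells, 28.6% (26.6 to 30.6) of cocultured sensitive cells, 23.9% (22.9 to 24.99) of cocultured resistant cells and 22.8% (21.9 to 23.8) of resistant monoculture cells. Without thinning these shares were 81.9%, 82.4%, 76.0% and 77.2%. MXD4 was found in 50.7%, 47.9%, 50.7% and 51.0% of thinned cells. FABP7, nearly absent from the resistant monoculture at 0.331% of thinned cells, was found in 4.37% of cocultured resistant cells. A UMI of FABP7 there need not come from the cell itself. MXD1, MNT and MGA were found in 1.998% to 4.09% of thinned cells, and MXD3 in G1 cells in 1.75% to 2.37%. The FABP7 share does not carry over to genes of other levels, and these low shares were read only as sums. In G2M cells MXD3 was found in 8.42% to 9.81% of thinned cells.

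Genes known as induced by MYC were set beside it. Of 40 such genes, mostly of ribosome production, nucleotide synthesis and metabolism, 39 matched by symbol and 37 had enough UMIs. Between cocultured and monocultured sensitive cells, 6 were counted as higher, where 6.81% of all genes were, and none as lower, and 34 of 37 had a ratio above 1. PA2G4, a growth regulator of the nucleolus, read 646.3 CPM in coculture and 351.1 CPM alone, FBL, the methyltransferase fibrillarin, 176.6 and 97.4 CPM, and WDR43, a ribosome assembly factor, 74.97 and 43.9 CPM. The median log2 ratio of the 37 was 0.27 against -0.05 for all genes, 0.17 in G1 cells alone and 0.06 with equal weight to each phase. In resistant cells, coculture over monoculture, 2 of 37 were counted as higher, against 1.59% of all genes, with a median of 0.01. In resistant over sensitive monoculture, 2 were higher and 1 lower, against 8.59% and 15.9% of all genes, with a median of 0.07, which was 0.00 in G1 cells and -0.11 with equal weight to each phase. In resistant over sensitive cells of the coculture, 5 were lower, against 5.41% of all genes, ODC1 of polyamine synthesis among them at -0.91, none was higher, and the median was -0.14.

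A minority of these genes was counted as higher in cycling cells. In S and G2M over G1, 14 of 37 were counted as higher among sensitive cells alone, 6 among those cocultured, 5 among cocultured resistant cells and 6 among resistant cells alone, and none as lower, where the shares over all genes were 9.70%, 7.19%, 6.18% and 6.45%. Medians were 0.41, 0.28, 0.22 and 0.20. CACGTG was found near the start of 19 of 33 MYC-induced genes with a listed region, or 57.6%, against 8.77% of 27305 genes, and the list was drawn from genes known as MYC targets.

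Genes known as repressed by MYC had the lowest median of the lists in cocultured over monocultured sensitive cells, and they include the CDK inhibitors CDKN1A and CDKN2B. Of 7, 6 had enough UMIs and 5 were counted as lower in cocultured than in monocultured sensitive cells, where 8.55% of all genes were. NDRG1, a stress and differentiation gene, read 9.01 CPM in coculture and 27.2 CPM alone, GADD45A, a growth arrest gene, 4.64 and 11.7 CPM, and CEBPA, a differentiation factor, 3.10 and 8.02 CPM. The median log2 ratio was -1.02, and -0.96 in G1 cells alone. It was -1.29 in resistant over sensitive monoculture, with 5 lower where 15.9% of all genes were. In resistant coculture over resistant monoculture it was 0.12, and CDKN1A was the 1 gene counted as higher, where 1.59% of all genes were. In resistant over sensitive coculture cells it was 0.03, with 1 lower, where 5.41% of all genes were. With a pseudocount of 10 CPM in place of 1 the first 2 medians were -0.49 and -0.62. In S and G2M over G1 cells, 4, 1, 2 and 1 of 6 were counted as lower in the 4 populations, where 8.27%, 2.80%, 1.64% and 1.35% of all genes were, and none as higher, with medians of -0.63, -0.18, -0.18 and -0.30.

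**Figure D5:**
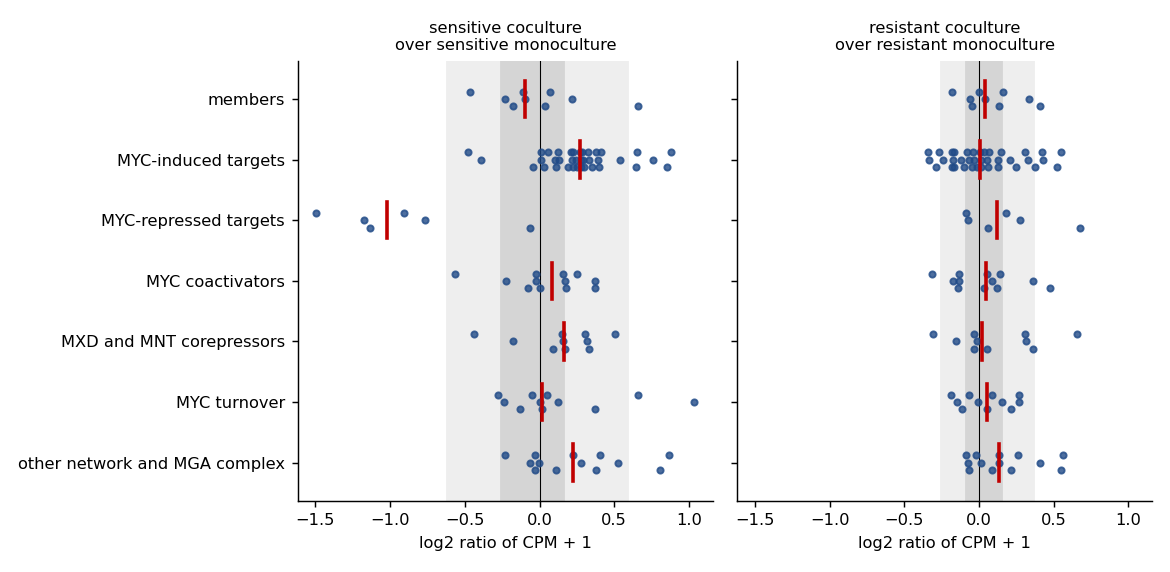
Log2 ratio of CPM + 1 (x axis) of each gene with enough UMIs in 7 lists (y axis), for cocultured over monocultured sensitive cells and for cocultured over monocultured resistant cells, with red bars for medians and bands that hold the middle 90% and 50% of all genes tested. In sensitive cells MYC-induced genes had a median of 0.27 and MYC-repressed genes of -1.02, against 0.01 and 0.12 in resistant cells.

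Of 12 coactivators of MYC, 1 was counted as lower in sensitive coculture over monoculture, where 8.55% of all genes were. This was CDK9, a kinase that releases paused RNA polymerase, at 11.8 against 18.0 CPM, and at 11.8 against 18.4 CPM in G1 cells. RUVBL2, an ATPase of chromatin remodelling complexes, read 76.1 and 58.5 CPM, short of the limit. The list's median was 0.08. No coactivator was counted between the resistant cultures, with a median of 0.05. In resistant over sensitive monoculture 2 of 12, CDK9 and its cyclin CCNT1, were counted as lower, where 15.9% of all genes were, at 10.5 against 18.0 CPM and 16.6 against 24.8 CPM, with a median of -0.04, and none was counted between the cocultured lines, with a median of -0.09.

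Of 10 corepressors that serve MXD proteins and MNT, 1 was counted as higher in sensitive coculture over monoculture, where 6.81% of all genes were. This was the histone-binding protein RBBP4 at 87.2 against 61.1 CPM, and at 77.7 against 59.1 CPM in G1 cells, short of the limit there. RBBP4 was also the 1 counted between the resistant cultures, where 1.59% of all genes were higher, at 65.8 CPM in coculture and 41.3 CPM alone. NCOR1, a nuclear receptor corepressor, read 34.2 and 46.7 CPM in the sensitive cultures. SAP30, a SIN3 complex subunit, read 33.2 and 26.2 CPM there and followed the cell cycle as MXD3 did, with 50.4 CPM in S and G2M cells and 22.2 CPM in G1 cells of the sensitive monoculture. The corepressor medians were 0.16 in sensitive and 0.02 in resistant cells, and that in sensitive cells was 0.03 in G1 alone and -0.03 with equal weight to each phase. SIN3B, a scaffold of the SIN3 complexes, was counted as lower in resistant than in sensitive cells both between monocultures, at 19.9 against 39.9 CPM, and within the coculture, at 24.9 against 44.4 CPM. The list's medians in these 2 comparisons were -0.13 and -0.05, and 2 of 10 were counted as lower in each, where 15.9% and 5.41% of all genes were, RBBP4 the other between monocultures and SAP30 within the coculture.

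Of 11 genes that act on MYC protein turnover, CIP2A, an inhibitor of the phosphatase PP2A that stabilizes MYC, and SKP2, a ubiquitin ligase subunit, were counted as higher in sensitive coculture over monoculture, where 6.81% of all genes were. CIP2A read 13.4 and 6.03 CPM and SKP2 8.21 and 4.83 CPM, while USP36, a nucleolar deubiquitinase, read 19.1 and 14.6 CPM and was not counted. In G1 cells CIP2A read 5.48 and 3.18 CPM and SKP2 5.59 and 4.00 CPM, and only CIP2A of the pair passed the limit. In S and in G2M cells the intervals of both ratios included 1. CIP2A and SKP2 were also counted in S and G2M over G1 in every population, CIP2A with 23.5 against 3.18 CPM in sensitive monoculture, where 9.70%, 7.19%, 6.18% and 6.45% of all genes were higher. Both were counted as higher in resistant over sensitive monoculture too, where 8.59% of all genes were. No gene of this list was counted between the resistant cultures or between the cocultured lines. The medians were 0.01 in sensitive and 0.06 in resistant cells, and RNA of these genes says nothing of MYC protein.

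Of 13 further network and MGA complex genes, 3 were counted as higher in cocultured than in monocultured sensitive cells, against 6.81% of all genes. These were YAF2, a Polycomb complex subunit, at 59.2 against 32.1 CPM, CBX3, a heterochromatin protein, at 293.4 against 167.0 CPM, and TFDP1, the E2F partner, at 45.9 against 31.6 CPM. In G1 cells YAF2 read 54.0 against 31.8 CPM and CBX3 245.9 against 151.4 CPM, while TFDP1, at 34.5 against 28.4 CPM, was short of the limit. YAF2 and CBX3 were also higher in resistant coculture over monoculture, at 42.2 against 28.5 CPM and 323.6 against 218.3 CPM, where 1.59% of all genes were. The medians were 0.22 and 0.13. In resistant over sensitive cells, 3 of 13 were counted as lower between monocultures, where 15.9% of all genes were, and 2 of 12 within the coculture, where 5.41% were. E2F6, a repressor of the MGA complex, and MLXIPL, the glucose-sensing partner of MLX, were counted in both, and RNF2, a Polycomb ubiquitin ligase, between monocultures alone at 5.76 against 10.0 CPM. E2F6 read 7.63 against 12.5 CPM and 8.48 against 16.9 CPM, and MLXIPL 0.502 against 1.64 CPM and 0.646 against 2.20 CPM. Genes of the germline that MGA complexes are known to keep silent were nearly absent: of 9, STAG3, a cohesin subunit, was the 1 with enough UMIs in sensitive cells, at 0.550 and 0.332 CPM in coculture and alone. SYCE2 of the synaptonemal complex read 0.114 CPM in sensitive and 1.82 CPM in resistant monoculture. In resistant over sensitive cells, 1 of 3 with enough UMIs was counted as higher between monocultures and within the coculture, where 8.59% and 3.17% of all genes were. In S and G2M over G1, 1 of 3 was counted as higher in resistant cells cocultured and alone, where 6.18% and 6.45% were. Of the MLX targets, ARRDC4, an arrestin-like gene induced by glucose, read 1.24 CPM in coculture and 2.55 CPM alone in sensitive cells.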

How the data were processed

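Spheroid cells were profiled with 10X Genomics 3' v3 chemistry. The authors aligned reads with Cell Ranger 3.0.2 to GRCh37 and deposited a table of raw UMI counts for each library, which also holds barcodes outside their quality limits. The deposited annotation gave phase, cluster and population, and 13 further columns of it were not used. The authors clustered the cells with Seurat after removing doublets predicted by Scrublet, and phase came from their S and G2M scores.

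Counts of annotated cells were summed per population, phase and cluster, without rows lacking a gene symbol (0.523% to 0.591% of UMIs), and totals per cell differed from the deposited ones by at most 6 UMIs. Ratios are log2(CPM + 1) differences for genes with at least 50 UMIs over both groups, and folds are ratios of CPM without a pseudocount. Intervals at 95% are exact: Poisson for counts, Clopper-Pearson for shares and ratios of counts. A UMI count of 0 allows up to 3 counts. No further doublet caller was run, and removing the 5% of cells with the most UMIs was an alternative. The scripts were tested on simulated data. Python 3.11.15, numpy 2.4.6, scipy 1.17.1 and pandas 2.3.3 were used, and edgeR 4.0.16 gave TMM factors as scaling only.

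The genes named are the 10 members, for each list the 3 genes or fewer that differed most (log2 ratio) between cocultured and monocultured sensitive cells, the 3 genes most like MYC, MAX and MXD4 over populations and phases, the transgenes, RRM2 and FABP7. A gene that this rule names is not reported here. Other genes named were chosen after their values were seen. The members and lists were chosen with earlier results of these data known. TXNIP, BOP1 and PECAM1 were not matched by symbol. Alternatives covered pseudocounts, UMI minimums, scaling, denominators, cells, phases and free RNA.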

Additional observations from a re-analysis of the deposited data

Results flagged for a closer look

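MYC differed in direction between the lines. Its log2 ratio of coculture over monoculture was -0.23 in sensitive cells and 0.14 in resistant cells. Of all genes tested, 27.5% had a ratio as low in sensitive cells and 27.6% one as high in resistant cells. MXD3 also differed in direction, with 0.66 in sensitive cells and -0.18 in resistant cells, but MXD3 read 0.03 and -0.06 in G1 cells alone. With 1 library per composition these differences were not tested.

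Barcodes left out of the annotation also held MYC. Those with a mitochondrial share of 30% or more numbered 4489, 6172 and 2187 in the sensitive monoculture, coculture and resistant monoculture libraries, and MYC read 64.2, 54.1 and 45.4 CPM in them. With mitochondrial UMIs left out of the total this came to 131.5, 102.0 and 87.1 CPM, and the activator to repressor ratio was 0.553, 0.431 and 0.370. These barcodes enter no comparison above.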

How the results depend on the processing

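No paired analysis was possible because each composition had 1 library. Of 414 member log2 ratios under alternatives, 16 changed sign, 3 of them from a ratio past the limit: MXD3 in resistant over sensitive monoculture read -0.12 in G1 cells and -0.11 with equal weight to each phase, and MXD3 in sensitive coculture over monoculture read -0.11 with equal weight. Beside these 3, more member ratios moved by more than their counting error. There were 9 with TMM factors, 9 in G1 cells alone, 9 with a pseudocount of 10 CPM and 7 with equal weight to each phase. The count of members past the limit in sensitive coculture over monoculture was 0 with a pseudocount of 10 CPM, in G1 cells alone and with equal weight to each phase, and 2 with mitochondrial UMIs left out of the total, where MXI1 was added at -0.52. In resistant over sensitive monoculture the count was 1 with a pseudocount of 10 CPM. The shares of all genes past the limit under these settings are not given here, so these counts cannot be set against them. In sensitive coculture over monoculture the median of all genes was -0.02 with a pseudocount of 10 CPM and -0.09 without mitochondrial UMIs, against -0.05. The activator to repressor ratio with MNT added to the repressors was 0.454 in sensitive monoculture, 0.344 in resistant coculture and 0.306 in resistant monoculture. In G1 cells it was 0.450, 0.418, 0.333 and 0.295 from sensitive monoculture to resistant monoculture. In cells thinned to 5000 UMIs it was 0.420 in sensitive and 0.328 in resistant coculture. In resistant monoculture it was 0.328 in cells with 2 or more UMIs of their transgene, and equal weight to each phase gave 0.534 in sensitive and 0.323 in resistant monoculture. MYC kept its direction in the 4 comparisons under each alternative run, and fell short of the limit in resistant over sensitive monoculture with TMM factors. These factors were 1.002 in resistant coculture and 0.954 in resistant monoculture, so the log2 ratio of MYC between them is smaller under this scaling. The median of all genes between the resistant cultures moved from 0.03 to -0.02 with it. Leaving out mitochondrial UMIs moved the median of all genes in resistant over sensitive monoculture from -0.07 to -0.13. The denominator, the equal weights and the other pseudocounts and UMI minimums for cycling over G1 cells were chosen after seeing the data. Of 32 list medians, 12 moved by more than the counting error of their middle gene with equal weight to each phase, 8 did so with TMM factors, and of 31, 6 did so in G1 cells and 10 in cells with 2 or more UMIs of their transgene. The calls of single list genes under TMM factors are not given here, and those near the limit may change. Depth limits MYCN, with 5 to 11 UMIs in a population.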

Other observations

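Genes with levels most like those of MYC, MAX and MXD4 were sought over the 12 values of 4 populations by 3 phases, among 3752 genes that averaged 10 CPM or more and had an SD of 0.2 or more on the log2 scale. The 12 values come from 3 libraries, and the correlations are descriptions with no test. MYC was followed most closely by RAB21, a small GTPase (Pearson r 0.956), VAPA of the endoplasmic reticulum membrane (0.951) and GSR, glutathione reductase (0.9497). RAB21 read 39.3 CPM in sensitive cells alone, 32.5 CPM in those cocultured, and 27.1 and 22.1 CPM in resistant cells cocultured and alone. MAX was followed by SYF2 (0.985), TBL1XR1 (0.948) and IQGAP1 (0.947), and MXD4 by GLI4 (0.982), GRHPR (0.963) and ZNF524 (0.955).

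In cells thinned to 5000 UMIs, MYC and an MXD-type repressor were found together in 18.5% of sensitive monoculture cells, 15.6% of cocultured sensitive cells, 13.8% of cocultured resistant cells and 13.0% of resistant monoculture cells. A repressor without MYC was found in 38.6%, 39.3%, 43.0% and 44.3% of cells in the same order. Shares found together also depend on how often each was found. They were not set against the share that separate detection would give.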
